A study of Solanum lycopersicum var. cerasiforme with 6 samples.

Results

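The genes described here set when a tomato shoot meristem becomes a flower: FALSIFLORA (FA), ANANTHA (AN), COMPOUND INFLORESCENCE (S), TERMINATING FLOWER (TMF) and the BLADE-ON-PETIOLE genes BOP1, BOP2 and BOP3. They were taken by locus identifier, and the 7 genes gave 7 of the 34081 rows of the count tables, 1 row each. RNA was sequenced from young inflorescences of Solanum lycopersicum var. cerasiforme, taken before the largest bud reached 2 mm, from F3 progenies that carried the derived (fw2.3-D) or the wild-type (fw2.3-WT) allele of fw2.3, a locus named for fruit weight on chromosome 2. Each library was a pool of RNA from 2 plants of 1 genotype, with 3 pools per genotype, and all plants grew unpruned in a greenhouse at random positions. The labels do not say whether plants were homozygous or which F3 family they came from.

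In tomato, the inflorescence forms as each meristem matures and ends in a flower, while a new meristem arises beside it. FA and AN are the tomato counterparts of the Arabidopsis genes LEAFY and UNUSUAL FLORAL ORGANS, and together they give a meristem floral identity. S encodes a WOX homeobox factor that is active before the floral stage. TMF, an ALOG-family protein, holds maturation back, and the BOP proteins are transcriptional cofactors that bind TMF. Loss of FA, AN or S gives leafy or highly branched inflorescences, whereas loss of TMF or of the BOP genes makes meristems mature too early and reduces the inflorescence towards a solitary flower.

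The count tables do not pair identifiers with names, so the names follow published assignments of these loci. A RefSeq gene table of another assembly (SLM_r2.1) listed 6 of the 7 by symbol or synonym. The search kept matches on the chromosome that the identifier gives, so the chromosome is no separate check of the names. FA is on chromosome 3 (Solyc03g118160.3), and AN (Solyc02g081670.1) and S (Solyc02g077390.2) are on chromosome 2. TMF (Solyc09g090180.1), for which the search gave no single match, is on chromosome 9. BOP1 (Solyc04g040220.3) is on chromosome 4, and BOP2 (Solyc10g079460.1) and BOP3 (Solyc10g079750.2) are both on chromosome 10. None of the 6 listed genes overlapped another RefSeq gene, which bears on these libraries because they did not keep strand. Total counts ran from 22303511 to 28504360 per pool, and each gene had 22 or more counts in every pool.

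All 7 genes were detected in every pool, and their order by level was the same in 6 of 6 pools. Levels between genes are given as the deposited RPKM (reads per length of gene, scaled to the library total), as mean ± SD over 6 pools. TMF was highest at 87.6 ± 14.3 RPKM, above 94.4% of the 25857 rows with any reads. FA followed at 42.8 ± 4.88 RPKM and AN at 30.2 ± 3.30 RPKM, above 87.0% and 80.7% of those rows. The floral identity partners thus stood next to each other, with FA 1.27 to 1.65 times AN in each pool. BOP3 reached 20.2 ± 2.53 RPKM, BOP2 13.2 ± 1.04 RPKM and BOP1 6.22 ± 1.13 RPKM. S was lowest at 1.86 ± 0.660 RPKM, above 29.0% of rows. No neighbours in this order overlapped in their ranges over the 6 pools; in proportion to their level the closest were FA, from 35.9 RPKM, and AN, up to 33.9 RPKM. The separation of TMF from FA and from AN rests on the gene lengths used. By mean CPM the order of the genes was the same in each genotype, though in fw2.3-D replicate 1 TMF stood below FA and AN. The RPKM imply 627 bases for TMF, 1131 for FA and 1368 for AN. Without scaling to length the pools of TMF, at 42.2 to 67.8 CPM, overlapped those of FA and of AN. FA stood at 40.3 to 55.4 CPM and AN at 35.2 to 47.2 CPM. CPM are counts scaled to library size with TMM factors, and are used below to compare pools. In bulk tissue, fewer cells that express a gene and less RNA per cell cannot be told apart.

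**Figure D1:**
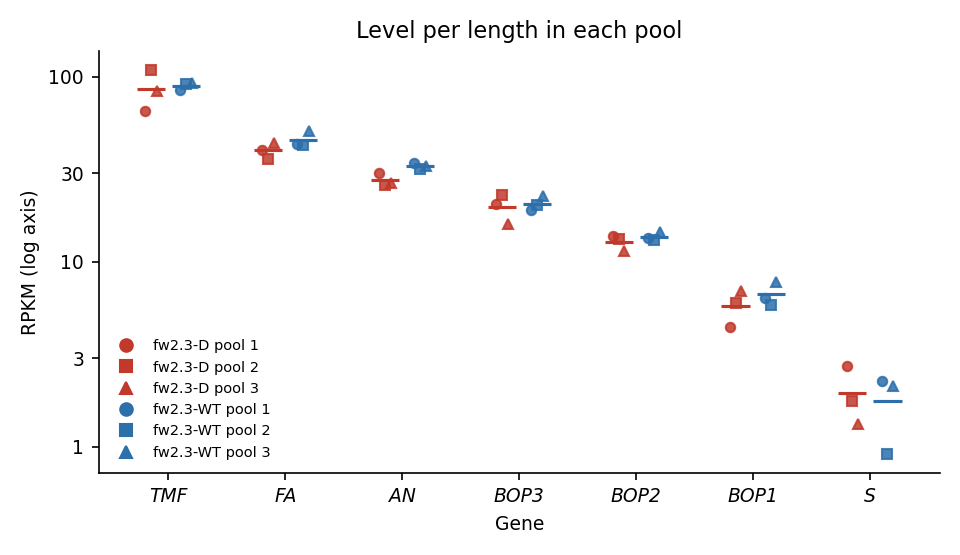
RPKM (log axis) of each gene in each pool, in order of mean level, with red for fw2.3-D, blue for fw2.3-WT, a marker shape for each replicate number and a line at each genotype mean. TMF is the highest gene and S the lowest in all 6 pools, and the AN pools are the only ones that do not overlap between genotypes.

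None of the 7 genes was called between fw2.3-D and fw2.3-WT. All 7 passed the filter on low counts, and edgeR's quasi-likelihood test over 20942 rows, with calls at a Benjamini-Hochberg adjusted p under 0.05, called 0 of 7, where it called 0.0239% of all tested rows. The edgeR adjusted p ran from 0.948 to 0.987. At an unadjusted p under 0.05 edgeR also gave 0 of 7 (3.56% of all tested rows), and DESeq2 called 0 (0.229% of all tested rows). The median log2 fold change of fw2.3-D over fw2.3-WT was -0.07, against 0.00083 over all tested rows, and 6 of 7 were below 0, where 49.8% of all rows were. The median size of the log2 fold change, regardless of sign, was 0.155 for the 7 genes and 0.14 for all rows. For 6 of the 7, the 95% interval of the log2 fold change lay within a change of 2-fold either way, and the exception was S. A p above the threshold does not show equal levels.

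**Figure D2:**
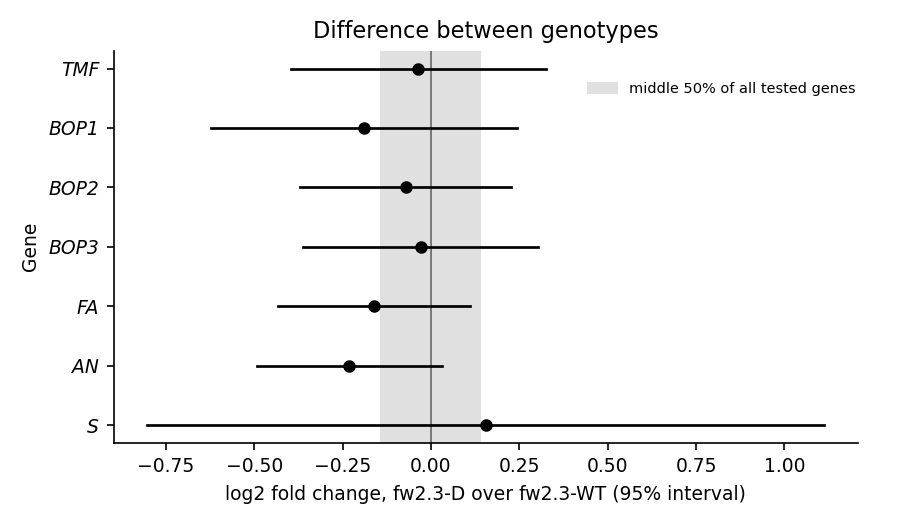
log2 fold change of fw2.3-D over fw2.3-WT for each gene (points) with its 95% interval from edgeR (lines), with the middle 50% of all tested genes in grey. Every interval includes 0, and that of S, from -0.80 to 1.11, is the widest.

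AN, an F-box protein gene, was the member whose pools did not overlap between genotypes. Pools with fw2.3-D stood at 42.6, 35.2 and 36.3 CPM, and those with fw2.3-WT at 47.2, 43.1 and 43.5 CPM. Each fw2.3-D pool was below each fw2.3-WT pool, though the highest fw2.3-D pool and the lowest fw2.3-WT pool differed little. The means were 38.0 ± 3.97 and 44.6 ± 2.25 CPM (SD, n = 3). On the log2 scale the genotypes differed by -0.23 (SE 0.117), with an unadjusted p of 0.0779 in edgeR and an adjusted p of 0.948. As a fold, the 95% interval ran from 0.711 to 1.02. Pools did not overlap in 9.49% of all tested rows, so 1 of 7 is near that share. The log2 fold change of AN was negative in every alternative run, from -0.32 to -0.18. Its unadjusted p in edgeR was 0.0307 without fw2.3-D replicate 1 (adjusted p = 0.954) and 0.0474 with a term for replicate 1 (adjusted p = 0.837). In limma on log2 RPKM, unadjusted p was 0.046 with pseudocount 1 and 0.0461 with pseudocount 0.1 (adjusted p = 0.937 and 0.938). Its unadjusted p was above 0.05 in the other runs.

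FA, whose product is a LEAFY-type transcription factor, gave a difference of the same sign but with overlapping pools. Its level was 47.0, 40.3 and 49.6 CPM in fw2.3-D and 49.7, 48.0 and 55.4 CPM in fw2.3-WT. The lowest pool was fw2.3-D replicate 2 and the highest fw2.3-WT replicate 3. The log2 fold change was -0.16 (SE 0.122; adjusted p = 0.948 in edgeR), with a 95% interval in fold from 0.741 to 1.08. The ratio of FA to AN in RPKM was 1.46 ± 0.171 in fw2.3-D and 1.39 ± 0.138 in fw2.3-WT (SD, n = 3), and its pools overlapped.

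S had the fewest counts and the widest interval of the 7 genes, and its pools varied more than counting error alone would give (40.7% against 14.1% of the mean within a genotype). Pools with fw2.3-D gave 76, 54 and 36 counts (3.04, 1.88 and 1.43 CPM), and those with fw2.3-WT gave 60, 22 and 55 counts (2.48, 0.983 and 2.22 CPM). The lowest pool, replicate 2, and the second highest, replicate 1, were both fw2.3-WT, and the genotypes overlapped widely. The log2 fold change was 0.15 (SE 0.428; adjusted p = 0.974 in edgeR), and the interval in fold, from 0.573 to 2.16, includes a change of 2-fold. Its sign turned when 1 pool was left out, to -0.20 without fw2.3-D replicate 1 and to -0.15 without fw2.3-WT replicate 2.

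TMF, the gene that delays maturation, had nearly equal genotype means but unequal spread. Pools with fw2.3-D stood at 42.2, 67.8 and 52.5 CPM, and those with fw2.3-WT at 53.8, 56.9 and 56.0 CPM. The fw2.3-D pools held both the lowest and the highest value, and the fw2.3-WT pools lay between them. The means were 54.2 ± 12.8 and 55.5 ± 1.60 CPM (SD, n = 3). Their log2 difference was -0.04 (SE 0.161; adjusted p = 0.984 in edgeR), with a 95% interval in fold from 0.760 to 1.25. Without fw2.3-D replicate 1 the log2 fold change was 0.11. Set against FA, TMF in RPKM was 1.62, 3.03 and 1.91 times as high in fw2.3-D and 1.95, 2.14 and 1.82 times as high in fw2.3-WT.

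The BOP genes kept similar proportions in both genotypes. Of the summed RPKM of the 3 genes, BOP3 gave 51.4% ± 4.06 in fw2.3-D and 50.2% ± 1.29 in fw2.3-WT (SD, n = 3). BOP2 gave 33.4% ± 2.24 and 33.5% ± 1.15, and BOP1 15.3% ± 4.44 and 16.3% ± 1.23. BOP1 was thus the least abundant in each pool, with a share from 11.5% to 20.1%. The sum itself was 38.3 ± 3.91 RPKM in fw2.3-D and 40.9 ± 3.40 RPKM in fw2.3-WT.

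None of the BOP genes differed between genotypes beyond the spread of the pools. BOP1 stood at 7.45, 9.65 and 11.2 CPM in fw2.3-D and 10.5, 9.47 and 12.2 CPM in fw2.3-WT, a log2 difference of -0.19 (SE 0.194; adjusted p = 0.948 in edgeR). Its lowest pool was fw2.3-D replicate 1, and without that pool the log2 fold change was -0.05. BOP2 stood at 21.2, 19.4 and 16.8 CPM against 20.2, 19.4 and 20.8 CPM, a log2 difference of -0.07 (SE 0.134; adjusted p = 0.961 in edgeR). BOP3 stood at 31.0, 33.4 and 23.4 CPM against 28.2, 29.5 and 32.0 CPM, a log2 difference of -0.03 (SE 0.149; adjusted p = 0.987 in edgeR). For BOP2 and BOP3, fw2.3-D replicate 3 was the lowest pool, whereas BOP1 was higher there than in the other fw2.3-D pools. Without fw2.3-D replicate 3 the log2 fold changes were 0.02 for BOP2 and 0.11 for BOP3, and without fw2.3-WT replicate 3 that of BOP3 was 0.02. The 95% intervals in fold ran from 0.650 to 1.18 for BOP1, from 0.773 to 1.17 for BOP2 and from 0.779 to 1.23 for BOP3.

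**Figure D3:**
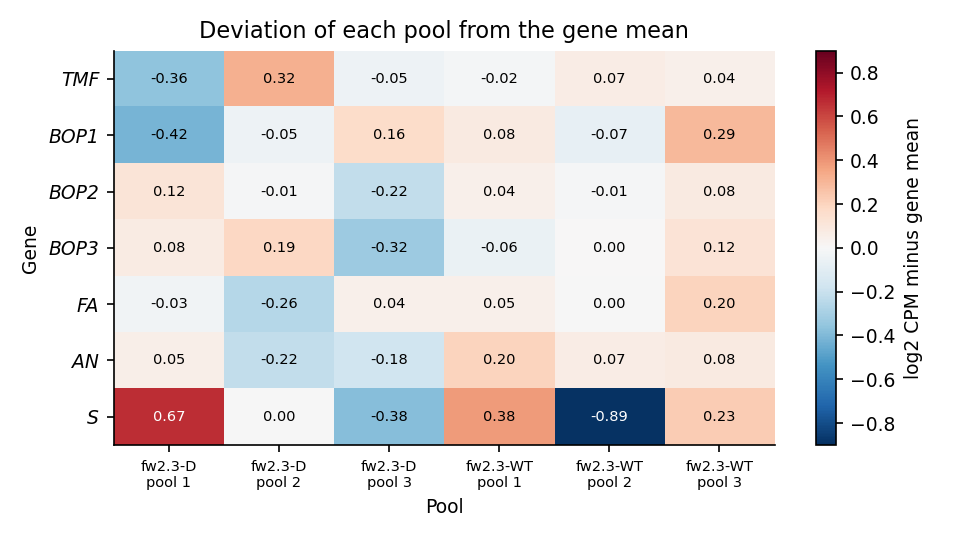
log2 CPM of each gene in each pool minus the mean of that gene over 6 pools. In fw2.3-D replicate 1, TMF (-0.36) and BOP1 (-0.42) are low and S (0.67) is high, while in fw2.3-WT replicate 3 all 7 genes are above their means.

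The genes did not move together as a block across pools. In fw2.3-WT replicate 3 all 7 genes stood above their own mean over 6 pools, by 0.04 to 0.29 on the log2 CPM scale. In fw2.3-D replicates 2 and 3 it was 2 of 7 in each, but not the same genes: TMF and BOP3 in replicate 2, FA and BOP1 in replicate 3. In fw2.3-D replicate 1, S was 0.67 above its mean while TMF was 0.36 and BOP1 0.42 below theirs. In fw2.3-WT replicate 2, S was 0.89 below its mean and the other 6 genes lay from -0.07 to 0.07 about theirs.

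The spread between fw2.3-D pools was the larger for 6 of the 7 genes. For TMF, the SD was 23.7% of the mean CPM in fw2.3-D and 2.88% in fw2.3-WT, where counting error alone would give about 2.69%. A larger ratio of spreads occurred in 1.56% of all tested rows. For BOP3 the SD was 17.8% and 6.44% of the mean, and for BOP2 11.7% and 3.29%. The fw2.3-WT spread of BOP2 was below the 4.51% or so that counting error alone would give. For AN the SD was 10.4% and 5.05% of the mean, for FA 10.6% and 7.62%, and for BOP1 19.9% and 12.9%. S was the exception, at 39.4% and 42.3%, with a counting error of 14.1%. Over all tested rows the spread was larger in fw2.3-D for 55.5%, with medians of 14.3% and 13.0%. The count among the 7 genes changed with single pools left out. Without fw2.3-D replicate 1, 2 or 3 the spread was larger in fw2.3-D for 4, 6 and 5 of 7 genes, and for 46.8%, 47.5% and 45.6% of all rows. Without fw2.3-WT replicate 1, 2 or 3 it was 6, 7 and 6 of 7, and 61.3%, 69.9% and 54.8% of all rows. Each such run sets 2 pools of 1 genotype against 3 of the other. The difference in spread was noticed after the values were seen and was not tested.

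**Figure D4:**
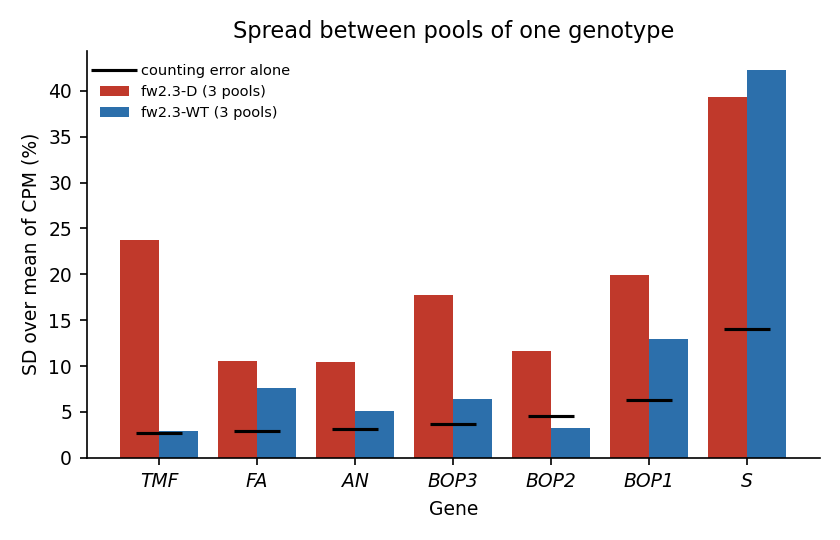
SD of CPM as a percentage of the mean over the 3 pools of each genotype (bars, red for fw2.3-D and blue for fw2.3-WT), with the percentage expected from counting error alone (black lines). The bars of TMF, 23.7% and 2.88%, differ most, and S is the only gene with the taller bar in fw2.3-WT.

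Other genes of inflorescence development gave no call either. A list of 24 loci, taken from published assignments as remembered, covered flowering signals, MADS-box factors of the inflorescence, and genes of meristem size and branching. Of these, 21 passed the filter. By edgeR 0 rose and 0 fell, where 0.0191% of all tested rows rose and 0.00478% fell, and DESeq2 called 0. Their log2 fold changes ran from -0.67 to 0.17 with a median of -0.08, and 15 of 21 were below 0, where 49.8% of all rows were. At an unadjusted p under 0.05, which 3.56% of all rows reached, there was 1, Solyc11g069030.3, named after its values were seen, at a log2 difference of -0.47 (SE 0.205; in edgeR unadjusted p = 0.044, adjusted p = 0.948). Pools did not overlap for 4 of the 21, where they did not in 9.49% of all tested rows.

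Markers of tissue stage and of green tissue differed between pools, most in fw2.3-D replicate 1. Of 10 floral organ identity loci, which mark formed floral buds, 9 passed the filter, none was called, and the median log2 fold change was 0.08. Their summed level was 842, 701 and 647 RPKM in fw2.3-D and 745, 673 and 674 RPKM in fw2.3-WT, so floral bud transcripts were present in every pool. The pool with the highest sum, fw2.3-D replicate 1, was the pool lowest in TMF and BOP1 and highest in S and BOP2. Of the 7 genes, 4 stood above their means there. The inflorescence list was also lowest there, with a median 0.25 below the gene means on the log2 CPM scale. The 8 photosynthesis loci, all tested with none called, summed to 3836, 3391 and 2846 RPKM in fw2.3-D and to 3779, 3095 and 2961 RPKM in fw2.3-WT. They were highest in replicate 1 of each genotype, and S was highest in the same pools. Among the remaining pools S kept the order of this sum in fw2.3-D but not in fw2.3-WT. There S was 0.983 CPM in replicate 2 and 2.22 CPM in replicate 3, the pool with the lower sum. The 5 clock loci, chosen to mark collection time, summed to 99.7 to 119 RPKM in fw2.3-D and 102 to 136 RPKM in fw2.3-WT. Their log2 fold changes ran from -0.34 to 0.23 (SE from 0.18 to 0.39), with no call. In that sum 1 locus, at a mean of 50.7 RPKM, weighed most, and opposite changes of loci cancel. The sum therefore cannot show whether collection time differed between pools. The part of stage, green tissue and collection time in the levels of the 7 genes was not tested.

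**Figure D5:**
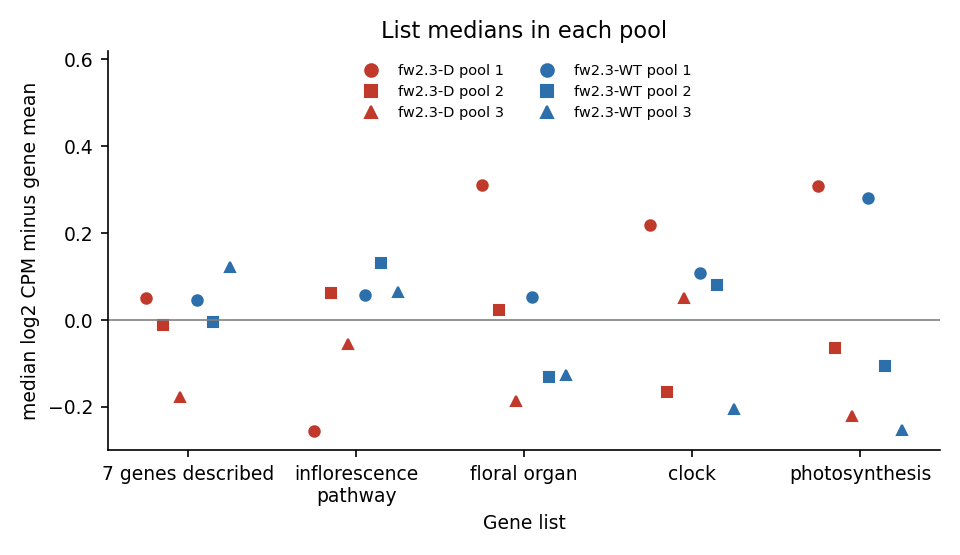
Median over the tested genes of each list of log2 CPM minus the gene mean, for each pool, with red for fw2.3-D, blue for fw2.3-WT and a marker shape for each replicate number. In fw2.3-D replicate 1 the floral organ list is highest (0.31) and the inflorescence list lowest (-0.25), and the photosynthesis list is high in replicate 1 of both genotypes (0.31 and 0.28).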

How the data were processed

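Each pool has a deposited table of raw read counts (34081 rows), and the authors also deposited RPKM for all pools (34075 rows). The submitters' processing notes list cutadapt, STAR and edgeR with no role or version. How reads were counted, and with which annotation, is not given in the sources. The RPKM imply lengths that are multiples of 3 in 100% of the 7 genes but in 47.1% of 22436 rows. Levels of the 7 genes may thus be per coding length, but most rows have lengths that are not multiples of 3. The percentages of rows below each gene may therefore compare lengths of different kinds.

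Counts were tested with edgeR 4.0.16 in R 4.3.3 (glmQLFit, glmQLFTest, two-sided, TMM factors, filterByExpr with a minimum count of 10, genotype as the single term, adjusted over 20942 rows). Standard errors come from the log2 fold change and its F statistic, and 95% intervals use the t distribution of the fit. Alternatives were DESeq2 1.42.0, RLE factors, other filters, a replicate block, a term for replicate 1, each pool left out, and limma 3.58.1 on log2(RPKM + 1) and log2(RPKM + 0.1). The gene test was checked on simulated counts. No pools agreed within sampling noise (chi-square per gene of 14.1 to 55.2). The most alike pools were replicate 1 of fw2.3-D and of fw2.3-WT (14.1), and the least alike were replicate 2 of each genotype (55.2). The lowest value within a genotype was 18.7, between fw2.3-WT replicates 2 and 3. Counting errors and the floor of 3 counts, 0.105 to 0.135 CPM, cover counting error only. An exact test of 3 pools against 3 cannot go below p = 0.1, so none is given for single genes.

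The rule for named genes took the 7 genes, the most similar gene to each, and any called list gene; Solyc11g069030.3 falls outside it. The genes and lists were chosen with earlier results of these data known. No sequences were used here.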

Additional observations from a re-analysis of the deposited data

How the results depend on the processing

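The count of called genes among the 7 was 0 under every alternative run, which includes DESeq2 and each pool left out, and the count among the other lists was 0 under every alternative run at an adjusted p under 0.05. Over all rows, where edgeR called 5, DESeq2 called 48, the unfiltered test 13, the fit with a term for replicate 1 called 13 and the fit with a replicate block called 10. Limma called 0 with either pseudocount, while 774 rows (pseudocount 1) and 746 rows (pseudocount 0.1) had an unadjusted p under 0.05, as did 746 in edgeR. Leaving out single pools gave 0 to 18 calls: fw2.3-D replicate 1 left out gave 18, fw2.3-WT replicate 1 left out gave 5, and each of the other pools left out gave 0 (426 to 1472 rows at an unadjusted p under 0.05). The cause was not tested. The labels do not say whether replicate numbers pair pools. The correlation of deviations between pools of one number was 0.357, -0.085 and 0.0613 for replicates 1, 2 and 3, which cannot show how pools were paired. The block changed no call among the 7 genes.

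No log2 fold change of the 7 genes changed sign except when a pool was left out, which gave 6 reversed values. The range was then -0.197 to 0.394 for S, -0.23 to 0.114 for TMF, -0.153 to 0.0157 for BOP2 (its lone reversed value, without fw2.3-D replicate 3) and -0.136 to 0.11 for BOP3. Those of FA (-0.225 to -0.0794), AN (-0.32 to -0.179) and BOP1 (-0.327 to -0.0475) stayed below 0. All 49 alternative levels in RPKM lay within 1 SD of the reported mean. Leaving out 1 of 6 pools cannot move a mean by 1 SD of those pools, so those runs could not give another outcome. Counting error was largest for S, with 22 to 76 counts per pool.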

Other observations

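For each of the 7 genes, the tested gene with the most similar pattern over the 6 pools was found by the root mean square difference of log2 CPM values, each centred on its own mean. For FA it was Solyc06g074690.3 (difference 0.0377), for AN Solyc03g025180.2 (0.0284), for S Solyc07g005680.4 (0.0808) and for TMF Solyc12g006160.2 (0.048). For BOP1 it was Solyc08g007730.2 (0.0559), for BOP2 Solyc06g084040.3 (0.0325) and for BOP3 Solyc07g007020.3 (0.04). The tables pair no names with these identifiers. The search ran over 20941 genes and 6 pools, so close matches are found for most patterns.

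Among the 7 genes themselves, BOP2 and BOP3 had the most similar patterns, with a difference of 0.102, but 189 genes were closer to BOP3 and 870 closer to BOP2. The FA pattern was closest to AN among the 7, with a difference of 0.13, but 1673 other genes were closer to FA than AN was. The AN pattern was closest to BOP2, with a difference of 0.117, behind 645 other genes. The nearest member to TMF was BOP1, at 0.213, behind 4384 other genes. TMF itself lay 0.201 (root mean square) about its own mean, so a gene with no change over the pools would be closer than BOP1. The patterns of TMF and BOP1 were thus not alike. This measure favours genes that vary little, and BOP2, at 0.109 about its mean, varied least of the 7.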
